A study of Arabidopsis thaliana with 12 samples.

Results

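The heat response of wild-type Arabidopsis thaliana seedlings was read from 6 of the 12 RNA sequencing libraries of the study, chosen by their labels alone. They are the 3 libraries of wild type (WT) seedlings kept at 22 °C (WT normal) and the 3 of WT seedlings held at 44 °C for 3 h (WT heat). All seedlings were 6 days old and had been grown at 22 °C on MS agar with sucrose under long days. The study also holds 6 libraries labelled hd2b hd2c at the same temperatures, which enter here only through the shared estimate of the spread and 1 test of whether their heat effect differed. The labels give 0 hours for the normal seedlings and no clock time, so if these were collected before the treatment, heat and the passing of 3 h cannot be told apart. Whole seedlings were sequenced, and in such bulk samples fewer cells of a type and less RNA per cell cannot be told apart. The labels do not tell whether the 3 replicates of a group were grown apart, so each p-value rests on the spread between libraries and that spread may be technical.

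Heat unfolds proteins and frees heat stress transcription factors, which bind heat shock elements (repeats of GAA and its complement TTC at fixed spacing) in the promoters of chaperone genes. Small heat shock proteins hold unfolded proteins in a soluble state, HSP70 with its J-domain partners and HSP101 refold them, and the ubiquitin and proteasome system degrades what cannot be rescued. In seedlings strong heat is also known to disturb photosynthetic membranes, splicing, translation and growth.

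**Figure D1:**
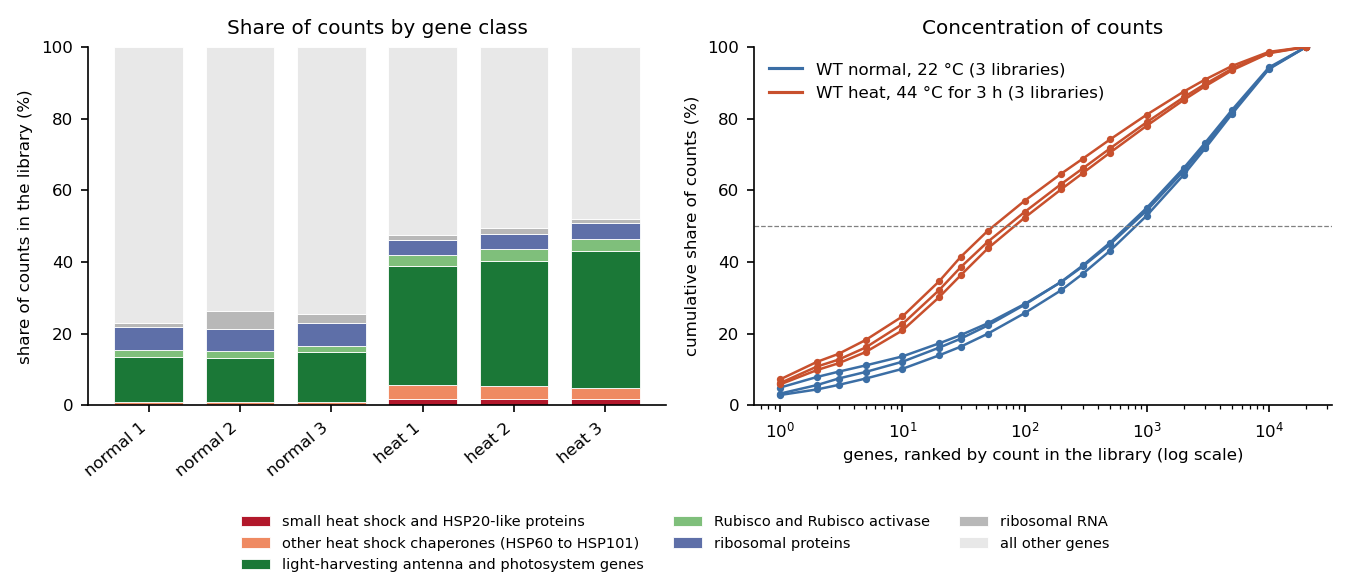
Left, share of all counts (%, linear axis) held by each gene class in each WT library. Right, cumulative share of counts (%) against genes ranked by their count within each library (log axis), with a dashed line at 50%. After heat the antenna and photosystem genes held 33.0% to 38.1% of counts, against 12.2% to 14.01% before, and the curves of all 3 heat libraries lie above those of all 3 normal libraries.

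The counts of heated seedlings came from far fewer genes. In WT normal 50% of all counts lay in 820, 735 and 703 genes, and in WT heat in 83, 72 and 56 genes. The 10 genes with the most counts held 10.2%, 13.7% and 12.2% of counts before heat and 20.9%, 22.7% and 24.8% after. The groups did not overlap in either measure, and the exact two-sided permutation p was 0.1, the smallest that 3 against 3 libraries can give. Without ribosomal RNA the share of the top 10 genes was 9.51% to 10.6% before and 20.8% to 24.98% after. The number of genes with any count was 21933 to 22469 before heat and 20571 to 21044 after, so the narrowing was mainly one of shares.

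Heat shock proteins took a small part of that shift and the photosynthetic antenna most of it. Small heat shock and other HSP20-like genes held 0.0711%, 0.0696% and 0.0659% of counts in WT normal and 1.88%, 1.75% and 1.66% in WT heat, 25.6 times more on average. The larger heat shock chaperones, from HSP60 to HSP101, went from a mean of 0.841% to 3.58%. Nuclear genes of the light-harvesting antenna and the photosystems went from 12.7%, 12.2% and 14.01% to 33.0%, 34.8% and 38.1%. Rubisco and Rubisco activase genes went from a mean of 1.86% to 3.32%, and genes of ribosomal proteins from 6.29% to 4.28%, although 183 of their 318 tested members were called higher with the scaling factors used below. Each of these 5 classes separated the 2 groups of libraries without overlap (exact permutation p 0.1 each). Ribosomal RNA, at 1.27%, 5.02% and 2.396% before heat and 1.42%, 1.54% and 1.29% after, did not separate them (p 0.4).

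The 10 genes that gained most share were 9 antenna genes and RCA, the chaperone that reactivates Rubisco. CAB1, a chlorophyll a/b-binding protein of photosystem II, held 3.07% of counts before heat and 6.48% after. LHB1B2 went from 1.61% to 4.49%, LHCA3 of the photosystem I antenna from 0.432% to 2.01%, and RCA from 0.203% to 0.974%. CAB1, CAB2 and CAB3, and likewise LHB1B1 and LHB1B2, are near-identical copies, so their split is uncertain. Among the 10 that lost most share were GRP7, a clock-controlled RNA-binding protein (0.545% to 0.129%), GER3, a germin of the cell wall (0.185% to 0.00488%), PYK10, the beta-glucosidase of ER bodies (0.17% to 0.0219%), the chloroplast RNA-binding protein CP29 (0.176% to 0.0348%), the aquaporin TIP2, the metallothionein MT2A and the plastid envelope protein OEP6. AT2G10940, annotated as a lipid transfer protein, and the peroxidase PRXR1 lost share too, but with scaling factors their log2 fold changes were 0.16 and 0.07 and did not pass (adjusted p 0.406 and 0.687), and on library totals they were −1.38 and −1.47. The 18S ribosomal RNA gene AT3G41768 lost the most share, from 2.88% to 1.41%, with groups that overlapped.

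Fold changes therefore depend on the scaling. Values below are CPM, counts scaled to a common library size, with trimmed mean of M values (TMM) factors, which were 1.62 to 1.72 in WT normal and 0.52 to 0.63 in WT heat, and library totals were 10443494 to 22987275 counts. On this scale 20232 genes were tested, and 65.8% were called at an adjusted p under 0.05 (edgeR), 31.0% higher after heat and 34.8% lower. The median log2 fold change of all tested genes was −0.14 with TMM factors, −0.39 with upper-quartile factors and −1.67 with library totals only, where 5.1% were called higher and 79.1% lower. Directions and calls below are against 0 on the TMM scale, and values are to be read beside that scale's median of −0.14. Of 204 named genes with a fold change, 18 changed sign on library totals. With upper-quartile factors AT2G10940 (−0.096) and PRXR1 (−0.18), neither of them called, changed sign. All 3 libraries of one group lay above all 3 of the other for 70.8% of tested genes. By size, 133 genes rose at least 64-fold, 361 rose 8- to 64-fold, 3132 rose 2- to 8-fold, 4119 fell 2- to 8-fold and 657 fell at least 8-fold. The genotype by heat test called 68 genes, 0.336% of those tested, but 207 with DESeq2, 180 with no filter, 10 on library totals, 339 without hd2b hd2c heat replicate 2 and 16 to 60 without 1 WT library, so this count is not stable.

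Tissue markers were read against the label of whole seedlings. Green shoot markers (RBCS1A, CAB1, CAB3, LHCB2.3 and RCA) summed to 27700 to 32600 CPM in WT normal and 161000 to 235000 in WT heat, and all 5 rose. Root hair markers summed to 16.4 to 19.6 CPM before heat and 1.31 to 4.5 after, and all 6 fell (median log2 fold change −2.50). Of 6 markers of the root tip and endodermis, SMB, SCR and SHR fell, and CASP1 and MYB36 did not pass. WOX5 was called higher (adjusted p 0.0426), but its groups overlapped, at 0.237, 0.287 and 0.354 CPM before heat and 1.84, 0.265 and 0.503 after. Of 5 guard cell markers, FMA, MYB60 and KAT1 fell, KAT1 with groups that overlapped. OZS1 did not pass and MPK3, which is also a general stress kinase, rose. None of 6 seed storage genes had enough counts to be tested, the flower genes AP1, AP3 and AG had 3 counts or fewer in all WT libraries together, and 3 of 5 pollen genes had at most 1 count. Other members of these lists were present, since SEP3, a flower factor, rose by 1.69 (adjusted p 2.1e-05) and the pollen-listed gene AT1G01310 by 5.18 (adjusted p 1.32e-08). Of 4 tested genes of the shoot meristem and leaf primordia, AFO (1.98) and STM (0.74, and −0.79 on library totals) rose and KNAT1 (−1.65) and BLH2 (−1.04) fell.

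The strongest rises were those of chaperones that are nearly silent at 22 °C. HSP17.6II, a cytosolic class II small heat shock protein, was at 0.158, 0.172 and 0.142 CPM in WT normal and 1090, 1110 and 1150 CPM in WT heat, 12.76 higher on the log2 scale (SE 0.277, adjusted p 3.96e-20). Its neighbour on the same strand, HSP17.6A, with a gap of 845 bases, went from 0.132, 0.86 and 0.248 to 1760, 1660 and 1820 CPM. Both genes were named under a rule that asks for groups without overlap. Their heat libraries lay far above the normal ones, and both stayed near silence without heat. The 12 largest rises held 10 HSP20-like genes, among them AT1G53540 at 0.501, 1.09 and 0.425 CPM before heat and 2380, 2540 and 2390 after (11.94, SE 0.313), and HSP17.4 at 0.395, 0.516 and 0.106 before and 1810, 1930 and 1980 after (12.50, SE 0.3). AT1G71000, a J-domain protein, went from 0.448, 0.287 and 0.389 to 874, 778 and 799 CPM (11.01, SE 0.247). AT5G54165, annotated as a rapidly elicited Avr9/Cf-9 protein, had 4 counts in one normal library and none in the other 2, and stood at 169, 153 and 195 CPM after heat (11.63, SE 0.314). PUM21, a Pumilio RNA-binding protein, had 0 counts in WT normal and 461 in WT heat, at least 354-fold higher when the normal group is set to a floor of 3 counts.

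Promoters of 4 of these genes are shown with the elements that heat stress factors bind. They are the genes of largest rise whose promoter holds, on either strand, the letters GAANNTTC followed by any 2 letters and GAA, which stand in capitals. Sequences run 5′ to 3′ on the gene's strand up to its start, from RefSeq on build TAIR10.1. The first base of each element stands at −99 and −18 in HSP17.4 (chr3:16984868-16985117, minus strand), at −53 in AT1G53540, a class I small heat shock protein (chr1:19980126-19980298, plus strand), at −131 and −126 in AT1G71000 (chr1:26770178-26770427, minus strand) and at −157 in the heat stress factor gene AT-HSFA7B (chr3:23398986-23399235, plus strand). The AT1G53540 sequence has 173 bases because bases within the neighbouring gene were left out.
HSP17.4: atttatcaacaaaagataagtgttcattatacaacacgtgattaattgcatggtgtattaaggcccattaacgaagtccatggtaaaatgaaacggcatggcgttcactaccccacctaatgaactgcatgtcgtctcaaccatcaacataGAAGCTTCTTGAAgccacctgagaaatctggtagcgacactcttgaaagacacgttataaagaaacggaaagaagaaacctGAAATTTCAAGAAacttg
AT1G53540: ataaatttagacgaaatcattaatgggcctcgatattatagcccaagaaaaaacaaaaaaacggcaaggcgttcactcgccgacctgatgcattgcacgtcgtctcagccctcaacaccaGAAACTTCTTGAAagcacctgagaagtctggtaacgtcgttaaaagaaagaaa
AT1G71000: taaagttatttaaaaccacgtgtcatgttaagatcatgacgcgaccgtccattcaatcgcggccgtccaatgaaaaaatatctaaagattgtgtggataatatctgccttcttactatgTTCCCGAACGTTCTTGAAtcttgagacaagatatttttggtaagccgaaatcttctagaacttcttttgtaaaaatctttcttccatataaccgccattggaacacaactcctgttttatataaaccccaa
AT-HSFA7B: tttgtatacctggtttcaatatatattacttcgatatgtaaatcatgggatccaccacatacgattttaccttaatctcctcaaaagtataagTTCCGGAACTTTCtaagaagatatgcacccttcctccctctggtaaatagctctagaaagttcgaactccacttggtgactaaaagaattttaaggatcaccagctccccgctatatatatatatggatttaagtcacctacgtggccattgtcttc

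Across all genes the share of promoters with this element followed the size of the rise. Counted in the 250 bases before to 50 after the start, it was in 14 of 116 promoters (12.1%) of genes that rose at least 64-fold and in 11 of 345 (3.19%) of those that rose 8- to 64-fold. It was in 0.71% of those that rose 2- to 8-fold, 0.433% of genes not called, 0.168% of those that fell at least 8-fold and 132 of all 27443 promoters (0.481%). With only the 250 bases before the start, the share was 8.62% in the strongest class and 0.386% in all promoters. The shorter run GAANNTTC, which is contained in the full element, was in 27.6%, 19.7% and 12.8% of the 3 classes of largest rise and in 11.6% of all promoters. The G-box CACGTG, bound by bZIP and bHLH factors, was in 23.3%, 16.2% and 11.5% of these classes and in 7.68% of all. The abscisic acid element ACGTGTC, which can share the letters ACGTG with a G-box, was in 11.2%, 9.86% and 6.97% against 4.33%. The W-box TTGACC, bound by WRKY factors, was in 7.76%, 13.9% and 14.3% of these classes against 14.2% of all. Only the strongest class, with 9 of 116 promoters, was lower. Such matches describe letters in a window and are not evidence that a factor binds there.

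**Figure D2:**
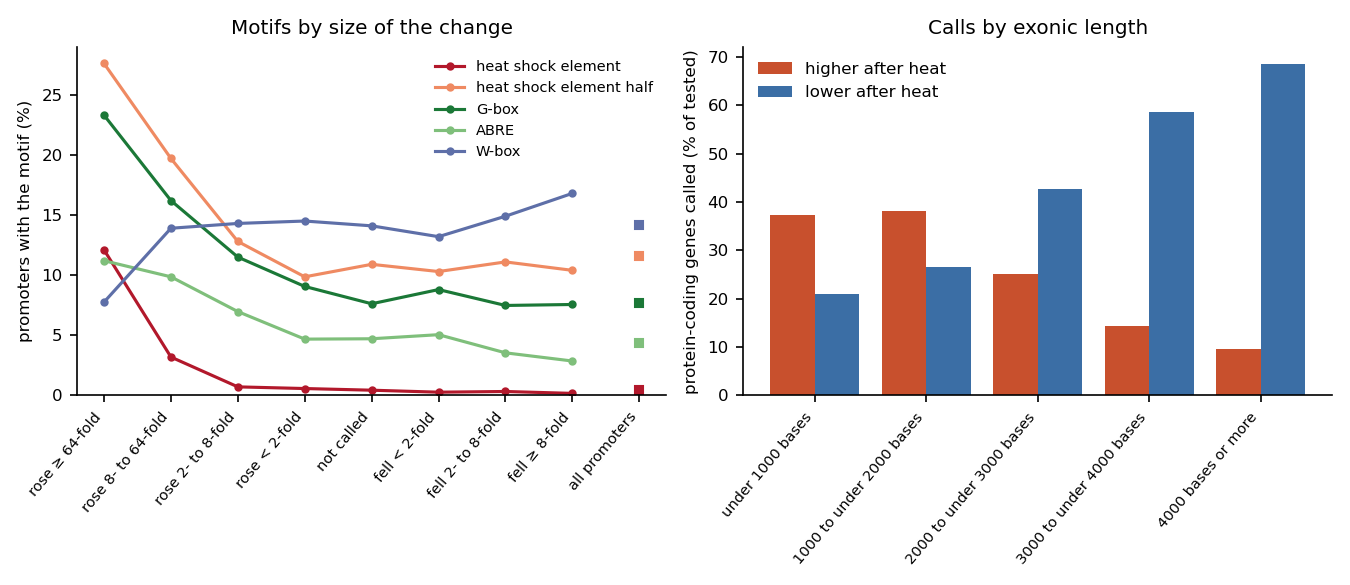
Left, share of promoters (%) that hold each motif, by size of the log2 fold change with TMM factors, with squares for all promoters and the orange line for the shorter run GAANNTTC. Right, share of tested protein-coding genes (%) called higher or lower after heat, by exonic length. The heat shock element was in 12.1% of promoters of the strongest risers against 0.481% of all, and 68.6% of genes of 4000 bases or more were called lower against 20.9% of those under 1000.

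Beyond the small heat shock proteins, the folding genes did not move as a block. J-domain co-chaperones, the partners that feed clients to HSP70, rose in 39 and fell in 40 of 115 tested (median log2 fold change −0.05, and −1.57 on library totals), shares close to those of all genes. They ranged from −6.27 to 11.01, and AT2G20560, a cytosolic member, went from 3.43, 1.83 and 3.4 to 1710, 1620 and 1610 CPM. Chaperonins and prefoldins, which fold newly made proteins in a chamber, rose in 17 and fell in 6 of 27 (median 0.54, and −0.98 on library totals). The plastid chaperonins Cpn60beta2 (4.63, SE 0.146) and CPN60A (3.08, SE 0.141) were among those that rose. Cyclophilins and FKBP isomerases, which turn proline bonds, rose in 23 and fell in 10 of 44 (median 0.44, and −1.10 on library totals). AT5G48570, an FKBP-type isomerase, went from 2.5, 2.69 and 2.87 to 1120, 860 and 730 CPM (8.40, SE 0.21) and ROF1 rose by 4.25.

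Genes of protein breakdown were mostly called higher in the proteasome, organelle proteases and autophagy, while the ligase families that choose targets held both directions. On library totals the medians of all these lists were below 0. Of 29 genes of the 26S proteasome 27 rose (median 1.05, and −0.48 on library totals), and the exception that fell, AT1G53780 (−1.89), is annotated as a regulatory ATPase and was named after its value was seen. RPT5B, an ATPase at the base of the regulatory particle, went from 8.41, 7.51 and 6.76 to 42.7, 42.6 and 42 CPM. The list of organelle proteases rose in 26 of 38 and fell in 3 (median 0.95, and −0.58 on library totals). It also holds disaggregases, which are not proteases themselves, and these were among its largest rises. CLPB3 of plastids went from 10.2, 12.6 and 8.17 to 1210, 978 and 893 CPM (6.65, SE 0.22), and CLPB4 of mitochondria rose by 5.01. The 3 members of the list that fell, named after their values were seen, were ftsh7 (−0.91), LON1 (−0.80) and FTSH12 (−0.66). Autophagy genes rose in 16 and fell in 6 of 28 (median 0.50, and −1.03 on library totals), among them ATG3 (1.78). RING-type ligases rose in 61 and fell in 87 of 256 (median −0.24), shares not far from those of all genes, and U-box ligases rose in 9 and fell in 3 of 21 (median 0.23, and −1.30 on library totals). The 3 that fell, PUB22 (−1.71), PUB38 (−1.04) and PUB13 (−0.86), were named after their values were seen. F-box genes rose in 30 and fell in 72 of 173 (median −0.51). Single ligase genes moved far within these families. PUB19, a U-box ligase of drought responses, went from 0.211, 0.229 and 0.46 to 64.4, 44.7 and 64.8 CPM, and the stress-induced F-box gene FBS1 from 2.42, 3.15 and 3.54 to 464, 439 and 479 CPM. PUB23 rose by 1.49 with TMM factors and was at −0.032 on library totals. The F-box genes AT3G18320 (−4.78) and AT5G07610 (−4.70) fell.

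**Figure D3:**
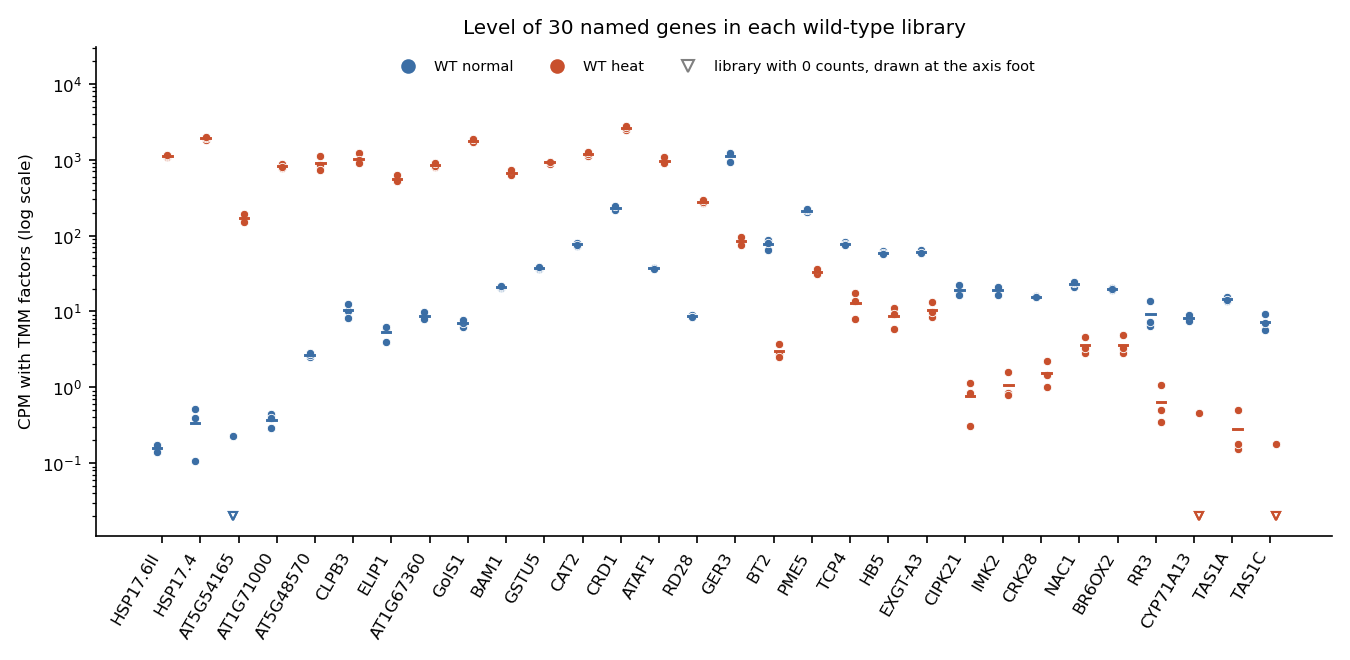
CPM with TMM factors (log axis) of 30 named genes in each WT library, blue for 22 °C and red for 44 °C, with a bar at the group mean, triangles for libraries with 0 counts and, for genes with such a library, no bar for that group. Genes run from HSP17.6II (12.76) at the left to the small RNA precursors TAS1A (−5.68) and TAS1C at the right. For each gene the 3 heat libraries lie all above or all below the 3 normal ones. The rule that named most of them asks for this, and 70.8% of all tested genes show it. None of the directions drawn changed on library totals.

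The 12 largest falls held no single family. AT3G23470, whose annotation names a cyclopropane fatty acid synthase, and AT5G60530, annotated as a late embryogenesis abundant protein, had 434 and 416 counts in WT normal and 0 in WT heat, at least 62.7-fold and 60.1-fold lower by the same floor for the heat group. AT1G17665, annotated as a CA-responsive protein, went from 14.8, 19 and 18.4 CPM before heat to 0.0768, 0.353 and 0.67 after (−5.57, SE 0.344). AT1G69760, annotated as an SRP40-like suppressor, went from 21.7, 21.7 and 16.8 CPM to 0.922, 0.0883 and 1.01 (−4.85, SE 0.442). In each of these 4 genes every heat library lay below every normal one, as the rule for naming them requires. AT2G07600 (−6.52), CYP71A13, a cytochrome P450 of camalexin synthesis (−5.58), and the precursors of trans-acting small RNAs TAS1A and TAS1C were the others outside the F-box, kinase and BT2 genes described with their lists.

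Genes around the photosystems rose with the antenna. Chlorophyll synthesis genes rose in 19 of 20 and fell in none (median 1.77, and 0.24 on library totals), and ALB1, a subunit of magnesium chelatase, did not pass (−0.04). CRD1, the cyclase that closes the chlorophyll ring, went from 230, 215 and 242 to 2500, 2630 and 2820 CPM (3.53, SE 0.146), and GUN4, which activates magnesium chelatase, rose by 3.14. Photoprotection genes rose in 7 of 8 (median 2.18, and 0.66 on library totals), while NPQ1 did not pass (0.14). ELIP1, an early light-induced protein that binds free chlorophyll under stress, went from 5.85, 3.9 and 6.26 to 527, 526 and 620 CPM (6.68, SE 0.194), and the zeaxanthin epoxidase gene ABA1 from 14, 15.1 and 16.1 to 103, 108 and 91.5 CPM. All 12 tested photorespiration genes rose (median 1.44, and −0.09 on library totals), among them the peroxisomal aminotransferase AGT (2.14). Genes of the tricarboxylic acid cycle rose in 25 of 29 (median 1.19, and −0.36 on library totals), a list that holds cytosolic malate dehydrogenases such as c-NAD-MDH2 (2.62). The malate dehydrogenase gene MDH (−0.28), named after its value was seen, fell. Respiratory chain genes rose in 35 and fell in 8 of 76 (median 0.32, and −1.20 on library totals).

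Carbon and osmolyte genes showed large single rises. Galactinol and raffinose genes, which make the protective sugars of heat and drought, rose in 5 of 7 (median 3.40, and 1.87 on library totals). GolS1, the heat-induced galactinol synthase, went from 6.14, 6.94 and 7.71 to 1710, 1710 and 1900 CPM (8.00, SE 0.195), and GolS2 from 2.4, 2.01 and 1.2 to 117, 115 and 132 CPM. GolS3 (5.51), GolS4 (2.08) and the raffinose synthase gene AT5G40390 (3.40) also rose and were named after their values were seen. Starch breakdown genes rose in 16 of 21 (median 0.71, and −0.81 on library totals). The first of 2 genes with the symbol BAM1, AT3G23920, a stress-activated plastid beta-amylase, went from 20.4, 20.8 and 21.5 to 671, 628 and 731 CPM (5.02, SE 0.142), and BAM6 (−1.99) fell, named after its value was seen. Trehalose genes rose in 2 and fell in 5 of 12 (median −0.40). TPS5 (1.66) and ATTPPA (0.70, and below 0 on library totals) rose and TPS8 (−1.79), TPS11 (−0.93), TPPB (−0.80), TPS7 (−0.40) and TPS9 (−0.40) fell, most of them named after their values were seen. Among carbon starvation genes 5 of 10 rose, and ASN1, the asparagine synthetase of dark and sugar-starved leaves, went from 6.38, 6.42 and 6.4 to 150, 146 and 159 CPM. The others that rose, named after their values were seen, were SEN1 (2.87), MCCA (1.34, and −0.19 on library totals), IVD (1.28, and −0.24) and GDH2 (1.05, and −0.48). The proline synthesis gene P5CS1 (1.66) and ALDH12A1 of proline breakdown (2.4) both rose.

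Lipid genes rose in most of the short lists. All 7 fatty acid desaturase genes rose (median 1.00, and −0.53 on library totals), with SSI2, the plastid stearoyl-ACP desaturase, at 1.88 and FAD5 at 1.02, which was −0.51 on library totals. Storage lipid genes rose in 7 and fell in 2 of 9 (median 1.29, and −0.23 on library totals). AT1G67360, a lipid droplet protein of the rubber elongation factor family, went from 8.7, 7.97 and 9.73 to 807, 831 and 914 CPM (6.59, SE 0.155), and the acyltransferase DGAT2 rose by 1.86, while the acyltransferase TAG1 (−0.90) and the lipin PAH1 (−0.74) fell, named after their values were seen.

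Cell wall lists differed in direction with TMM factors. Monolignol and lignin genes rose in 12 of 15 and fell in none (median 0.94, and −0.59 on library totals). CCR1 (AT1G15950), the cinnamoyl-CoA reductase that begins monolignol synthesis proper, went from 13.8, 11.7 and 11.3 to 174, 200 and 193 CPM (3.94, SE 0.129), although an annotated gene on the other strand overlaps most of it, and CAD5, the last step, rose by 2.79. The other wall lists were lower in larger shares than the 34.8% of all genes. Expansins fell in 13 and rose in 6 of 23 (median −0.71), and xyloglucan endotransglucosylases fell in 14 and rose in 5 of 29 (median −0.66). Arabinogalactan and fasciclin-like proteins fell in 25 and rose in 5 of 43 (median −0.94), pectin methylesterases fell in 8 and rose in 2 of 10 (median −1.41), and class III peroxidases fell in 32 and rose in 3 of 52 (median −0.76). PME5, a pectin methylesterase of elongating tissue, went from 203, 216 and 222 to 33, 31.3 and 36.4 CPM (−2.67, SE 0.146). EXGT-A3, a xyloglucan transferase, went from 58.2, 64.4 and 58 to 8.45, 13.2 and 9.88 CPM. The rises among them, mostly named after their values were seen, were XTH32 (1.92), XTH7 (1.75), TCH4, XTH24 and XTH6, the fasciclin-like FLA5 (4.75) and FLA1, the arabinogalactan proteins AGP12 (1.69), AGP21 and AGP26, PME61 (2.57) and PME31 (1.31, and −0.22 on library totals), and the peroxidases AT5G51890 (1.56), AT5G64100 and AT2G37130. On library totals TCH4, XTH24, XTH6, FLA1, AGP21, AGP26, AT5G64100 and AT2G37130 were below 0. GER3 went from 1190, 933 and 1210 to 83, 75.9 and 94.9 CPM (−3.71, SE 0.205), and the groups did not overlap.

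With TMM factors the cytoskeleton lists of filaments and motors had opposite directions, while on library totals the medians of both were below 0. All 15 tubulin genes rose (median 1.36, and −0.18 on library totals), as did all 6 tested actin genes (median 1.33, and −0.20 on library totals). TUA1 went from 10.2, 10.2 and 11.3 to 71.4, 66.9 and 83.8 CPM, and ACT7 from 263, 237 and 282 to 1050, 1060 and 1120 CPM. ACT11 rose by 1.45 with TMM factors and was at −0.08 on library totals. Kinesins, the motors on microtubules, fell in 18 and rose in 3 of 26 (median −1.21), with ATK3, a spindle motor, from 16.4, 18.3 and 18.7 to 3.69, 4.33 and 4.27 CPM. The 3 that rose, named after their values were seen, were AT4G24175 (1.14), KAC1 (0.53) and ARK2 (0.50), and all 3 were below 0 on library totals. Kinesin genes are also long, with a median exonic length of 3656 bases against 1778 for all tested protein-coding genes.

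Transcript length went along with the direction of change over the whole genome. Protein-coding genes with under 1000 exonic bases were called higher in 37.3% and lower in 20.9%, and those of 4000 bases or more in 9.61% and 68.6%. The median log2 fold change went from 0.20 and 0.12 in the 2 shortest classes to −0.36, −0.74 and −0.94 in the longer ones. Within the genes of 10 to 100 CPM the shares called lower were 15.9%, 19.4%, 36.7%, 56.4% and 68.7% from the shortest class to the longest. Genes with 1 exon rose at least 8-fold in 4.88% of cases, and those with 16 or more exons in 0.408%. Over all sizes of change, direction did not follow exon number in 1 order, with 26.2% higher and 37.5% lower for 1 exon, 35.6% and 30.3% for 4 to 7 exons, and 21.6% and 50.7% for 16 or more. RNA integrity was not measured in the files, and its part in these trends was not tested.

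Some families with many falls are made of long genes, and their counts are given beside all protein-coding genes of the same length. Receptor-like kinases, which sense peptides and pathogens at the cell surface, fell in 171 and rose in 7 of 222 (median −1.35), with a median exonic length of 2988 bases. Of the 99 members with 2000 to under 3000 bases 73.7% fell, against 42.7% of all protein-coding genes of that length. IMK2, a meristem receptor kinase, went from 20.4, 21.2 and 16.6 to 0.845, 0.795 and 1.59 CPM (−4.16, SE 0.285), and CRK28, a cysteine-rich kinase, from 15.8, 15.7 and 15.3 to 1.46, 2.21 and 1.01 CPM, although it overlaps CRK29 on the same strand. Pentatricopeptide repeat genes, which process organelle transcripts, fell in 156 and rose in 9 of 248 (median −1.41), with 64.9% lower among the 134 of 2000 to under 3000 bases, against the same 42.7%. NLR immune receptors fell in 74 and rose in 8 of 125 (median −1.08), with 67.3% lower among the 49 of 3000 to under 4000 bases, where 58.5% of all protein-coding genes were, but 58.0% among the 50 of 4000 bases or more, where 68.6% of all were. One of the 8 that rose, AT1G66090 of the TIR class, went from 1.03, 1.2 and 0.495 to 74.6, 61.8 and 55.6 CPM. These are counts within classes and carry no test of the families.

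RNA and translation genes went in both directions. SR splicing factors rose in 14 and fell in 1 of 19 (median 0.76, and −0.78 on library totals), with SR30, whose own splicing responds to light and heat, from 93.1, 93.5 and 107 to 381, 372 and 410 CPM, and RS31 (−0.30) falling, named after its value was seen. Core snRNP genes rose in 11 and fell in 11 of 38 (median 0.13, and −1.41 on library totals). These shares, 28.9% each, were not far from the 31.0% and 34.8% of all tested genes. Among 15 genes of stress granules and mRNA decay, UBP1B (1.90), DCP1 (1.34), RBP47B (0.59) and Tudor1 (0.27) rose and DCP2 (−1.84), LARP1a (−0.93) and UBP1A (−0.75) fell, most of them named after their values were seen. DCP1 and DCP2 encode partners in the decapping complex. On library totals DCP1 was at −0.19, RBP47B at −0.94 and Tudor1 at −1.25. Translation initiation factors rose in 17 and fell in 6 of 32 (median 0.54, and −0.98 on library totals). Mitochondrial ribosomal proteins rose in 5 of 7, with MRPL11 at 1.71 and AT3G01740 at 1.01, which was −0.52 on library totals. AT5G39800, AT3G59650 and RPS14, named after their values were seen, rose by 0.74, 0.67 and 0.40 and were at −0.78, −0.86 and −1.13 on library totals. AT5G10695, annotated as a methionyl-tRNA synthetase, went from 1.87, 1.72 and 2.51 to 640, 720 and 800 CPM.

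Hormone lists ranged from one direction to both. Type-A response regulators, the fast feedback genes of cytokinin, fell in 7 and rose in none of 9 (median −1.70), with RR3 from 6.48, 13.9 and 7.22 to 1.08, 0.353 and 0.503 CPM (−3.78, SE 0.403) and RR5 at −2.21. GA3OX1, which makes active gibberellin, went from 1.92, 2.18 and 0.991 to 35.3, 34.2 and 29.2 CPM (4.30, SE 0.212), and GA20OX1, the step before it, rose by 2.82, in a list where 7 of 16 rose and GA2OX8 (−1.97), GID1A (−0.75) and GASA4 (−0.55), named after their values were seen, fell. BR6OX2, the last step of brassinosteroid synthesis, went from 20.5, 19.3 and 19.7 to 2.84, 4.86 and 3.27 CPM (−2.45, SE 0.208), and its early step CPD rose by 1.77, named after its value was seen. Auxin response factors fell in 11 and rose in none of 15 (median −0.97), while SAUR genes of rapid elongation rose in 27 and fell in 16 of 63 (median 0.38, and −1.14 on library totals). ARF16 (−2.51) and ETT (−1.79) fell.

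Among transcription factor families, AP2/ERF factors rose in 29 and fell in 3 of 39 (median 1.16, and −0.37 on library totals), and CBF2, best known from cold, went from 0.975, 1.26 and 1.52 to 75.9, 58.9 and 90.5 CPM. The 3 that fell, named after their values were seen, were ERF12 (−2.84), RAP2.9 (−2.08) and RAP2.7 (−1.03). WRKY factors of defence fell in 28 and rose in 7 of 57 (median −0.85), although WRKY40 rose by 3.78. TCP factors of leaf growth fell in 10 and rose in 2 of 18 (median −0.81), with TCP4 from 81, 78.2 and 76.1 to 7.91, 17.6 and 13.7 CPM (−2.59, SE 0.203). TCP11 (1.70) and TCP15 (0.65, and below 0 on library totals), named after their values were seen, rose. B-box factors of light and clock signalling rose in 14 and fell in 9 of 26 (median 1.56, and 0.03 on library totals). The microprotein genes of that family rose most, BBX30 from 0.0791, 0.459 and 0.0708 to 23.5, 26 and 30.8 CPM and BBX32 by 6.50. ATAF1, a NAC factor of drought and senescence, went from 37, 37.4 and 36.7 to 910, 909 and 1070 CPM (4.70, SE 0.153), and NAC1, of lateral root growth, fell by 2.69. HB5, a homeodomain leucine zipper factor, went from 63, 58.5 and 57.7 to 11, 9.27 and 5.78 CPM.

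Transport, iron and detoxification lists held single strong genes. RD28, a plasma membrane aquaporin, went from 9.01, 8.31 and 8.56 to 268, 273 and 295 CPM (5.01, SE 0.142), while aquaporins as a list rose in 15 and fell in 6 of 28 (median 0.49, and −1.04 on library totals). GSTU5, a tau class glutathione transferase, went from 36.6, 36.8 and 38.2 to 937, 887 and 944 CPM (4.63, SE 0.164) in a list with 15 rises and 3 falls of 26 (median 1.06, and −0.45 on library totals), where GSTU14 (−1.86), GSTU10 (−1.78) and GSTU23 (−1.51), named after their values were seen, fell. Iron deficiency genes fell in 9 of 15 (median −1.06), and the ferritin FER1, which stores iron, went from 34.3, 35.1 and 46.5 to 193, 178 and 229 CPM. NAS4, which makes the iron chelator nicotianamine, and the ferritin FER4 rose by 1.25 and 1.27 with TMM factors and were at −0.28 and −0.26 on library totals. BT2, a nitrate-responsive BTB protein, went from 65, 86.6 and 80.3 to 2.77, 2.47 and 3.69 CPM (−4.69, SE 0.187). The kinases CIPK21 (−4.66) and CPK23 (−2.94) of calcium signalling fell, and the kinase CDPK6, which rose by 1.4, was at −0.13 on library totals.

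**Figure D4:**
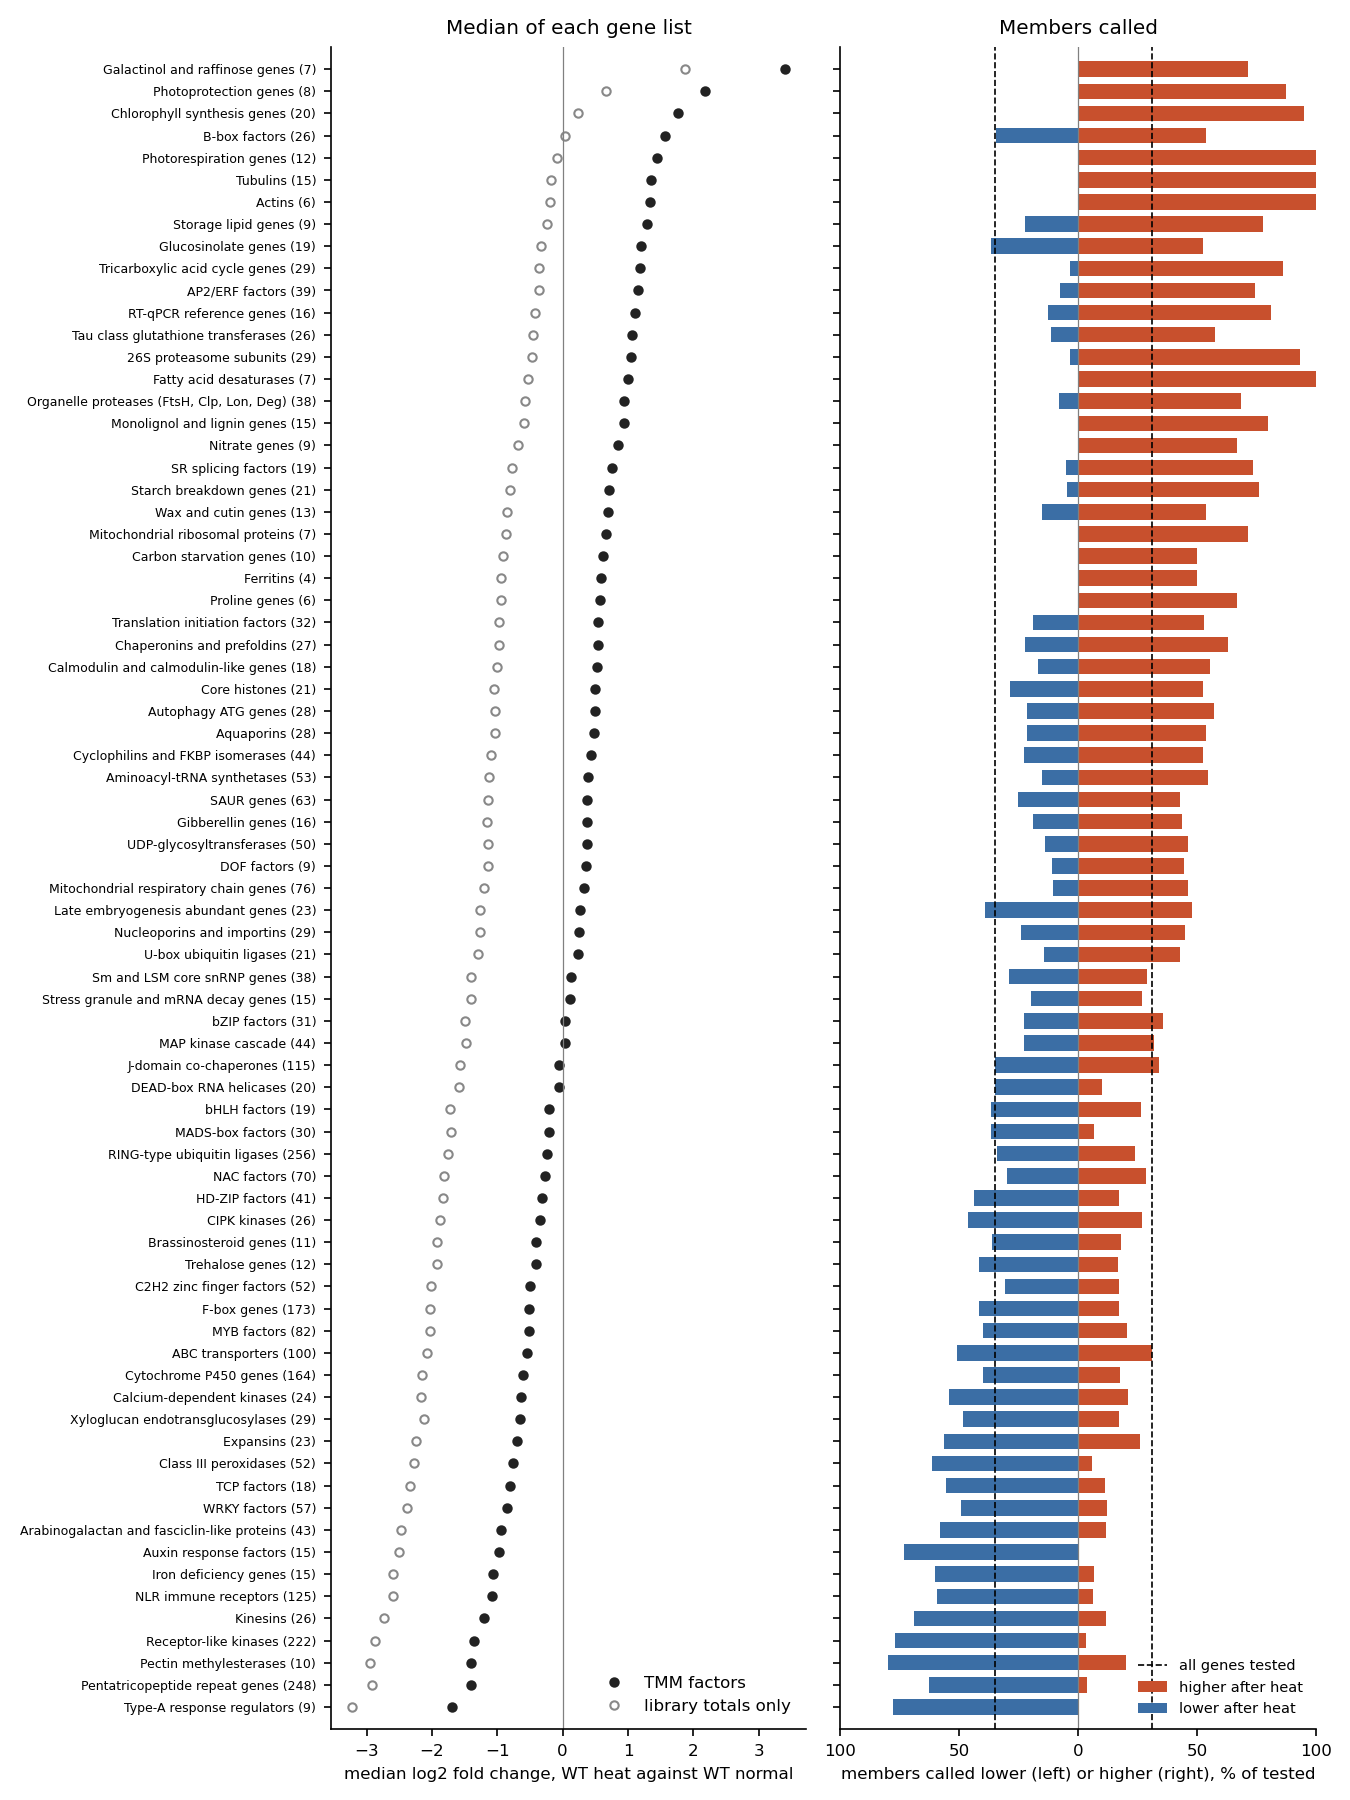
Left, median log2 fold change of each gene list (tested members in brackets) with TMM factors (filled) and on library totals only (open). Right, share of tested members called lower (left of 0) or higher (right of 0) with TMM factors, with dashed lines at the shares of all tested genes, 34.8% and 31.0%. With TMM factors 45 of the 75 medians lie above 0 and on library totals 4 do, namely galactinol and raffinose, photoprotection, chlorophyll synthesis and B-box genes.

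Genes used to normalise RT-qPCR were mostly not steady. Of 16 tested reference genes 13 rose and AT5G15710 (−1.45) and AT2G32170 (−0.49) fell (median 1.11, and −0.42 on library totals), and AT1G58050 had no count in any WT library. UBQ10, a polyubiquitin gene, went from 951, 859 and 1010 to 9160, 9900 and 12100 CPM (3.46, SE 0.227, and 1.92 on library totals), and GAPC1, a glycolytic dehydrogenase, from 333, 305 and 357 to 2670, 2760 and 2990 CPM (3.08, SE 0.179, and 1.55 on library totals). Heat libraries of both genes lay above all normal ones. AT2G28390, a SAND family gene, was at 22.3, 26.1 and 25.3 CPM before heat and 26.8, 20.6 and 24.7 after, with groups that overlapped (−0.03, SE 0.139, adjusted p 0.875), but on library totals it was at −1.55. The rises of ACT2 (1.31, and −0.22 on library totals), ACT8 (1.06, and −0.47), PP2AA3 (1.16, and −0.37), YLS8 (1.29, and −0.24), AT4G26410 (1.00, and −0.53), PTB1 (0.76, and −0.77), PEX4 (0.73, and −0.80) and AT4G34270 (0.59, and −0.93) changed sign with the scaling. Over all tested genes 26 (0.129%) had at least 5 CPM in WT normal and a 95% interval of the log2 fold change within 0.25 of 0 on the TMM scale. That count depends on precision and is not a count of all steady genes. With its SE of 0.139 even AT2G28390 could not meet the limit. Of all tested genes 34.2% were not called.

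**Figure D5:**
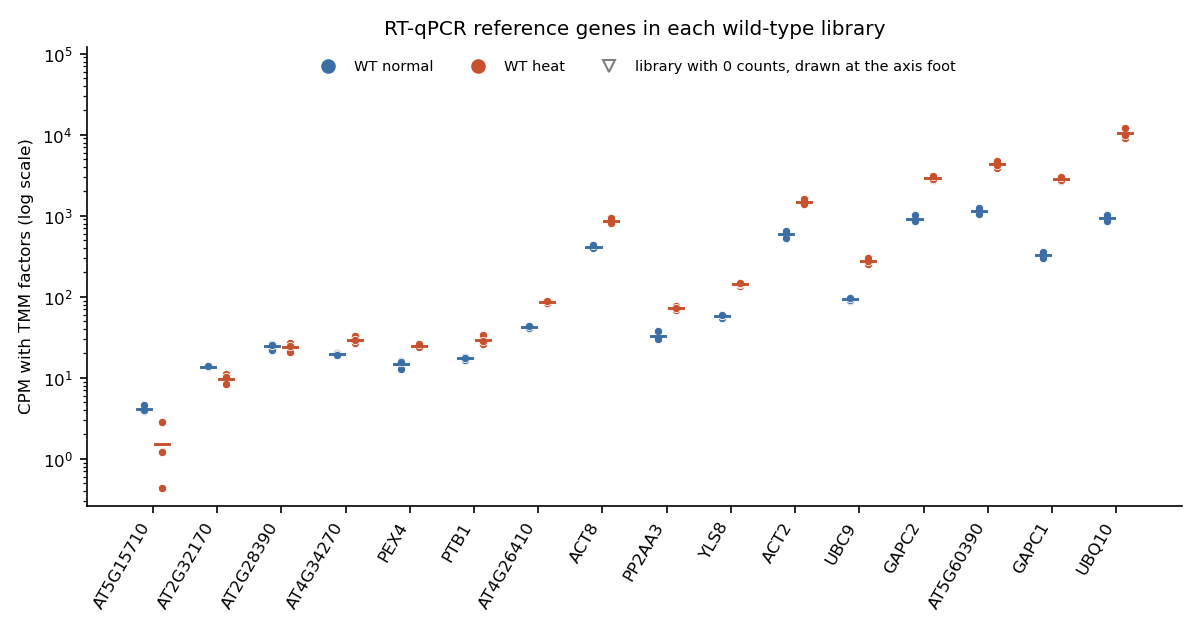
CPM with TMM factors (log axis) of the 16 tested RT-qPCR reference genes in each WT library, with a bar at the group mean. AT2G28390 overlaps between the groups, and UBQ10 lies at 859 to 1010 CPM before heat and 9160 to 12100 after. On library totals 8 of the 13 genes that rose were lower after heat.

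Genes next to the strongest risers were compared by side and strand. The risers were the 94 genes that rose at least 64-fold, had a mean of at least 5 CPM in either group and separated the groups without overlap. Their nearest downstream neighbours on the same strand within 1000 bases, leaving out neighbours that were such risers themselves, rose in 15 and fell in 1 of 18 (median log2 fold change 1.52). Upstream neighbours on the same strand within 1000 bases rose in 11 and fell in 4 of 24 (median 0.23). On the opposite strand within 1000 bases, downstream neighbours rose in 10 and fell in 2 of 13 (median 1.11) and upstream ones rose in 10 and fell in 4 of 17 (median 1.62). Of all tested genes 31.0% were called higher and 34.8% lower. These calls and medians are on the TMM scale only, and no test of position was made. The following were chosen after their values were seen. RIN3 starts 226 bases after AT5G51440, a small heat shock protein gene, and rose by 3.02. SDH3-1, a subunit of succinate dehydrogenase, starts 74 bases after MTHSC70-2, a mitochondrial HSP70, and rose by 3.10, and PUM21 in turn overlaps SDH3-1. AT3G09360 starts 79 bases after Fes1A, an HSP70 exchange factor, and rose by 2.81, whereas HCF152 starts 345 bases after APX2 and fell by 0.80. Counts per gene do not show whether reads of a neighbour belong to its own transcript. Of the 205 named genes 72 overlap another annotated gene, 62 of them on the opposite strand, HSP17.4 and GolS1 among them, and the strand setting of the counting is not given in the sources used here.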

How the data were processed

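The authors deposited a table of raw counts, whole numbers of reads per gene that were not normalised. Trizol was used for extraction and the Abclonal Fast kit V2 for the libraries, per the labels. The submitters' processing notes name the TAIR10 build, HISAT2 2.1.0 and featureCounts 2.0.3. How strand and multiply aligned reads were treated, like the ecotype, is not given in the sources used here, so overlapping genes and near-identical copies are uncertain.

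All 12 libraries in 4 groups were fitted with edgeR 4.0.16 in R 4.3.3 (TMM factors, filterByExpr with a minimum count of 10 and total of 15, robust quasi-likelihood F test, two-sided, Benjamini-Hochberg adjustment over 20232 genes, common dispersion 0.0236). The WT contrast was heat minus normal, with n = 3 libraries each, and genes at an adjusted p under 0.05 were called. Dividing a gene's absolute log2 fold change by the root of its F statistic gave the SE. Totals of 10443494 to 22987275 counts in the WT libraries limit what low genes can show. Single values were compared by exact permutation in SciPy 1.17.1 under Python 3.11.15. On simulated counts for this contrast, 90 of 100 genes changed 2-fold and 99 of 100 changed 4-fold were recovered, with 18 false calls in a step of 19691 genes. The simulation drew all libraries from the WT normal proportions and changed only these genes, equally often up and down. It held no shift of composition like that of the real heat libraries, so it does not test the scaling. It also gave every gene the same dispersion, set below the common dispersion of 0.0236, so recovery of genes with a wider spread was not tested.

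The alternatives were library totals only, upper-quartile factors, DESeq2 1.42.0, no filter, 1 CPM in 3 libraries, the 6 WT libraries alone, a replicate block and leaving out each WT library or the replicate 2 of hd2b hd2c heat. The latter library had 7737285 counts and a TMM factor of 0.424. The others of its group had 24030931 and 23519653 counts and factors of 0.6855 and 0.7439. It also stood apart from its group in ribosomal RNA share.

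Members and lists were chosen with earlier results of these data known. Most of the 75 lists match words in the annotation, which covered 28931 of 33330 features, so members share a description and not always a function. Annotation mismatches led to 82 exclusions, some made after values were seen. Named genes are the 12 largest rises and falls whose mean reached 5 CPM in either group, with no overlap between groups, the 10 largest gains and losses of share, up to 2 genes per list under the same conditions, the reference genes and the tissue markers. Motifs were searched on both strands from 250 bases before to 50 after the start in 27443 RefSeq promoters of TAIR10.1. Floors and intervals cover counting error only.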

Additional observations from a re-analysis of the deposited data

Results flagged for a closer look

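Of the 204 named genes with a fold change, 4 had a heat effect that differed between WT and the libraries labelled hd2b hd2c. The interaction test was that of edgeR, adjusted over all genes, with differences coded as WT minus hd2b hd2c. It called 0.336% of all tested genes, and 10 to 339 genes across settings, so its calls are not stable. The values of these 4 genes are from the main fit. ASN1 differed by −1.30 on the log2 scale (adjusted p 0.00352). It rose by 4.57 in WT and by 5.86 in hd2b hd2c, where it went from 1.79, 2.1 and 2.07 to 124, 137 and 90.2 CPM. CBF2 differed by 1.65 (adjusted p 0.00252), with a rise of 5.92 in WT and of 4.27 in hd2b hd2c, where it went from 5.27, 6.72 and 6.43 to 115, 137 and 106 CPM. For both genes, and for HAT2 as well, the normal libraries of the 2 genotypes did not overlap. HAT2 differed by 0.839 (adjusted p 0.0238), with 18.3, 17.4 and 20.9 CPM before heat and 89.6, 92.5 and 81.7 after in WT, against 26.4, 25 and 22.8 before and 58.4, 61.9 and 72.3 after in hd2b hd2c. AT3G23470 differed by −6.93 (adjusted p 0.0149), a fitted value that depends on the prior count and is no bound, since WT heat had 0 counts and the hd2b hd2c heat libraries had 11, 4 and 15.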

How the results depend on the processing

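The scaling decided most. With library totals only, 1031 genes were called higher and 16005 lower, 14517 changed at least 2-fold, 6.05% of calls were higher, 4 list medians were positive and 10 genes were called by the interaction test. With upper-quartile factors 36.8% of calls were higher. The interaction test called 207 genes with DESeq2 and 180 with no filter. Counted over the 100 most abundant genes, the share of counts differed by 27.1 points between heat and normal. With the 6 WT libraries alone 6297 genes were called higher and 6973 lower. Same-numbered WT libraries had correlations of −0.00995, 0.0229 and 0.059 of their deviations, against −0.0608 to 0.0412 for the other pairs. The labels do not tell what a shared number stands for, and these values cannot settle it. The fit with a replicate block called 6134 higher and 6842 lower. Leaving out 1 library gave 12295 to 13972 calls, 5873 to 6473 higher, 6422 to 7499 lower, 8088 to 8574 of at least 2-fold, 46.3% to 47.8% of calls higher, 43 to 45 positive list medians and 16 to 339 interaction calls. The highest of these came without hd2b hd2c heat replicate 2, and the 6 fits without a WT library gave 16 to 60. The share of the top 10 genes differed by 9.78 to 11.7 points when a library was left out and by 12.9 without ribosomal RNA. On library totals the list medians that changed sign were −0.98 (chaperonins), −1.10 (cyclophilins), −0.476 (proteasome), −1.03 (autophagy), −0.583 (organelle proteases), −1.30 (U-box), −0.777 (SR factors), −1.41 (core snRNP), −1.26 (nucleoporins), −1.41 (stress granule), −0.981 (translation initiation), −1.13 (aminoacyl-tRNA synthetases), −0.861 (mitochondrial ribosome), −0.0926 (photorespiration), −1.20 (respiratory chain), −0.361 (tricarboxylic acid cycle), −0.811 (starch), −0.951 (proline), −0.914 (carbon starvation), −1.26 (late embryogenesis), −0.533 (desaturases), −0.233 (storage lipid), −0.848 (wax), −0.589 (monolignol), −0.175 (tubulins), −0.20 (actins), −1.05 (core histones), −1.16 (gibberellin), −1.14 (SAUR), −1.04 (aquaporins), −0.944 (ferritins), −0.678 (nitrate), −0.33 (glucosinolate), −1.14 (glycosyltransferases), −0.448 (tau transferases), −0.365 (AP2/ERF), −1.49 (bZIP), −1.15 (DOF), −1.0 (calmodulin), −1.48 (MAP kinase) and −0.419 (reference genes). The 18 named genes that changed sign there were AT2G10940 (−1.38), PRXR1 (−1.47), PUB23 (−0.032), AT3G01740 (−0.52), FAD5 (−0.51), ACT11 (−0.077), NAS4 (−0.28), FER4 (−0.26), PRE1 (−0.10), CDPK6 (−0.13), PP2AA3 (−0.37), ACT8 (−0.47), PTB1 (−0.77), ACT2 (−0.22), AT4G26410 (−0.53), AT4G34270 (−0.93), YLS8 (−0.24) and PEX4 (−0.80). With upper-quartile factors the medians of U-box (−0.0225), core snRNP (−0.127), stress granule (−0.145), bZIP (−0.208) and MAP kinase genes (−0.214) changed sign. Leaving out 1 library at a time turned in at least 1 case the medians of MAP kinase genes (−0.0671 to 0.104), of bZIP factors (−0.0336 to 0.114) and of nucleoporins (−0.0198 to 0.362). Outside library totals 2641 named gene values kept their side of the threshold, 10 lost the call and no called gene changed sign. Of the genes not called, AT2G10940 (−0.096) and PRXR1 (−0.18) changed sign with upper-quartile factors, PRXR1 (−0.017) without WT heat replicate 3, and AT2G28390 without WT normal replicate 2 (0.016) or WT heat replicate 2 (0.073). The heat shock element was in 8.62% of promoters of the strongest risers with the 250 bases before the start only.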
